A study of Mus musculus with 12 samples.

Results

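Regulatory T cells, the CD4 T cells that restrain immune responses, were compared for how their RNA changed on stimulation with and without the lipid peroxide-reducing enzyme Gpx4. The quantity described here is a difference between responses, called the interaction. It is the log2 change on stimulation in Gpx4-deficient cells minus the log2 change on stimulation in wild-type cells, for each gene. It draws on all 12 of the 12 libraries of the study, 3 in each of 4 groups: wild-type unstimulated, wild-type stimulated, Gpx4-deficient unstimulated and Gpx4-deficient stimulated. The mice were 11 weeks old. Wild-type animals are labelled only WT, and Gpx4-deficient animals carried Foxp3Cre and Gpx4fl/fl, so that recombinase made under the control of Foxp3 removed a loxP-flanked Gpx4 from cells of this lineage. The labels do not say whether the wild-type animals carried Cre. Stimulated cells had spent 4 h on plates coated at 5 µg/ml with antibodies to CD3 and CD28, which engage the T cell receptor (TCR) complex and its main costimulator. No culture time is given for the unstimulated cells, so stimulation and culture cannot be told apart in either response. Nothing in the labels says that the 3 libraries of a group came from separate animals, so the spread behind each p-value is that of the libraries and may be technical. Library numbers ran in separate blocks for the genotypes, and within each block in separate runs for the states. A batch of libraries thus cannot be told apart from the genotype, the state or the interaction.

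Signals from the TCR and CD28 reach the nucleus within minutes through kinase and calcium pathways. They switch on immediate early genes, whose transcripts appear without new protein synthesis and decay quickly, and then genes for growth, metabolism and effector function. Many immediate early genes are also switched on by handling and stress, and heat shock genes by damaged protein. Gpx4 reduces lipid hydroperoxides in membranes with glutathione, and cells that lack it are prone to ferroptosis, a death by iron-dependent lipid peroxidation.

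The regulatory sequence next to 4 of the called immediate early genes is shown here because their responses, described below, differed between genotypes while their directions did not all match. Of the 7 called genes of that kind, 5 had an entry, and the 4 shown are those that hold the motif marked. Each run is the 250 bases before a transcript start in RefSeq (GRCm38.p6), written 5′ to 3′ on the gene's strand. For Nr4a1 and Dusp1 this start lies inside the longer GENCODE gene span given with their values. Capitals mark TGACG, the core of the cAMP response element (CRE) bound by CREB and ATF proteins, or its complement CGTCA.
Fos, chr12:85473640-85473889, plus strand: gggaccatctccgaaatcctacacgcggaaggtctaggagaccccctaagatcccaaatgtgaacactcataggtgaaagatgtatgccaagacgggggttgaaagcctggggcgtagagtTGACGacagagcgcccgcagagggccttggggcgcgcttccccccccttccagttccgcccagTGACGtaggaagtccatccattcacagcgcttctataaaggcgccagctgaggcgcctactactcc
Nr4a1, chr15:101266596-101266845, plus strand: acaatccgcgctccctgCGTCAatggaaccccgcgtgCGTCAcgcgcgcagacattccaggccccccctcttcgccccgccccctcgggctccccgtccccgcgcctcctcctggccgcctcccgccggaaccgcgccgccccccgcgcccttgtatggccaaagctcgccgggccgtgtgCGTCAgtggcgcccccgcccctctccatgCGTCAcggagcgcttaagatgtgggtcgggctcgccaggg
Junb, chr8:84978749-84978998, minus strand: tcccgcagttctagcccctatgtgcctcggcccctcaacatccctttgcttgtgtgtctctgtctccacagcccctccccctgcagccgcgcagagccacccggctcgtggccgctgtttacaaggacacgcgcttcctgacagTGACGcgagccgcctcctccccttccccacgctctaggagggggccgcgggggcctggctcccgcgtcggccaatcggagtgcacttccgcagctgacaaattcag
Dusp1, chr17:26508473-26508722, minus strand: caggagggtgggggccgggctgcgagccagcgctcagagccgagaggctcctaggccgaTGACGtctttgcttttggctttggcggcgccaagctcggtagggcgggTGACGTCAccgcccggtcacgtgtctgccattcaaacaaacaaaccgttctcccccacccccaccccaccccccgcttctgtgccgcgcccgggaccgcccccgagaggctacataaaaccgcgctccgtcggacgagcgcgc
The core was chosen after the data were seen, and 17.8% of 32851 RefSeq promoter windows of this length hold it on either strand. The window of Jun, the fifth gene with an entry, does not. Only the Dusp1 window holds the full palindrome TGACGTCA, at -143 to -136 from the start, as do 1.55% of all windows. Entries were found for 17 of all 30 called genes, and 10 of these hold the core. A gene was counted if any of its entries held it, so this count is not comparable with the share of single windows. A match describes the letters of the window and is not evidence of binding.

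Library totals ran from 24629230 to 31879267 counts. Regulatory T cell markers were present in every library: Foxp3, the lineage-defining transcription factor, ranged from 20.6 to 75.9 CPM (counts scaled to library size), and Il2ra, the alpha chain of the interleukin-2 receptor, from 489 to 3230 CPM. Cd8a ranged from 0 to 1.81 CPM and the B cell marker Cd79a from 0.703 to 19.5 CPM. The macrophage marker Csf1r ranged from 0 to 42.7 CPM, the epithelial marker Epcam from 9.3 to 26.7 CPM and the neutrophil marker Ly6g from 0 to 0.732 CPM. Gpx4 had group means of 154 and 86.5 CPM in wild-type cells without and with stimulation, against 8.20 and 7.03 CPM in Gpx4-deficient cells. Its interaction was 0.61 (log2, SE 0.56, adjusted p = 0.846, edgeR), and that of Foxp3 was 0.36 (SE 0.41, adjusted p = 0.896). Stimulated Gpx4-deficient libraries differed most among themselves, with replicate correlations of 0.709 to 0.759 across genes and a common dispersion of 1.43, against 0.866 to 0.897 and 0.531 in stimulated wild-type libraries.

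Both genotypes responded strongly and mostly in the same direction. Stimulation changed 1709 of 14827 tested genes in wild-type cells (11.5%; 907 or 6.12% higher, 802 or 5.41% lower) and 2266 in Gpx4-deficient cells (15.3%; 1105 or 7.45% higher, 1161 or 7.83% lower), at a Benjamini-Hochberg adjusted p under 0.05 in edgeR's quasi-likelihood test. Of these, 665 genes rose in both genotypes and 552 fell in both. No gene was called lower in wild-type and higher in Gpx4-deficient cells. The converse was seen for 3 genes: Wdr4, a tRNA methylation subunit, Tob2, an antiproliferative factor, and Col9a3, a collagen chain. The interaction itself was not called for any of the 3 (adjusted p = 0.0613, 0.0947 and 0.0969, edgeR). They were named after their values were seen.

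The interaction was called for 30 genes, 0.202% of those tested. The response was lower (more negative) in Gpx4-deficient cells for 26 of them (0.175%) and higher for 4 (0.027%). At an unadjusted p under 0.05 there were 1298 genes (8.75%), 821 with a lower (5.54%) and 477 with a higher response (3.22%). By their fitted responses, 24 of the 30 genes responded more in Gpx4-deficient cells, in the direction of wild-type cells. Among these 24, the wild-type response itself was not called for 10 genes with a stimulated Gpx4-deficient mean under 1 CPM. It was not called for the 2 mitochondrial transcripts either, so the direction in wild-type cells is uncertain for all of these. The response was smaller in 3 genes (Nr4a1, Egr1 and S100a10), and the fitted responses pointed in opposite directions in 3 (Ier2, Nsl1 and Rpusd2). The 26 genes with a lower response comprise 8 that remained plentiful in stimulated Gpx4-deficient cells and 18 whose mean there was under 1 CPM. When each library was left out in turn, all 30 genes kept their direction, Fos and Capn3 kept their calls throughout, and the count of calls ran from 2 (without any 1 unstimulated wild-type library) to 167 (without stimulated Gpx4-deficient replicate 2). Without unstimulated Gpx4-deficient replicate 1 and stimulated Gpx4-deficient replicate 3 together, 57 genes were called, 23 of the 30 among them, and limma-voom in place of edgeR called 0 (1347 at an unadjusted p under 0.05).

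**Figure D1:**
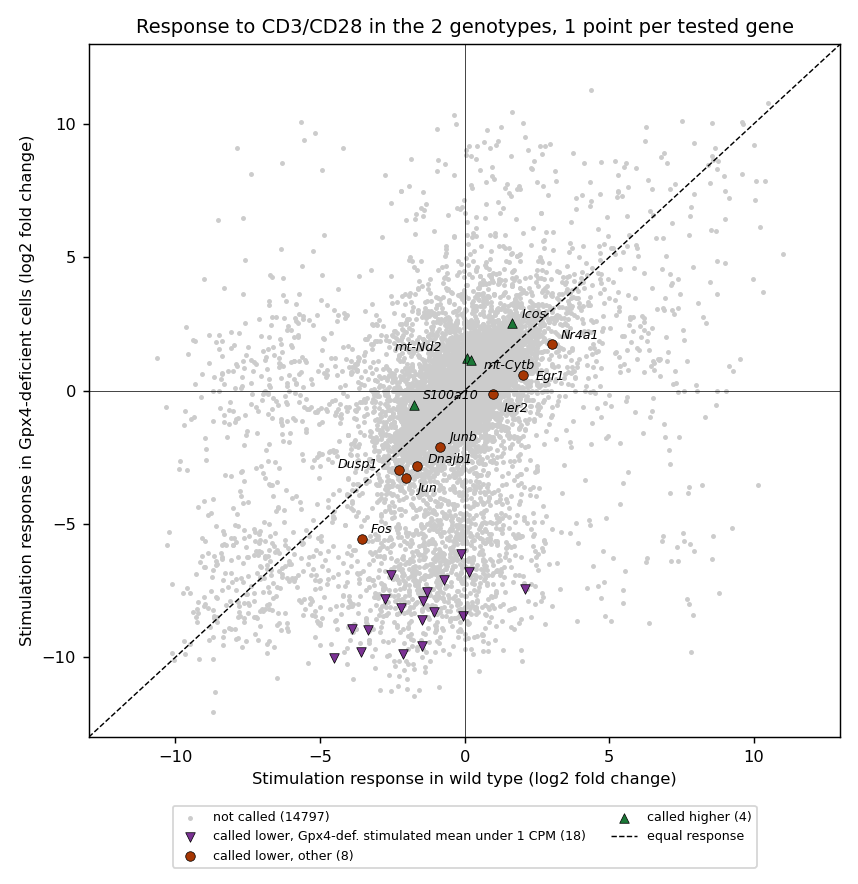
Stimulation response (log2 fold change) of each of 14827 tested genes in wild-type (x axis) and Gpx4-deficient cells (y axis). The dashed line marks equal responses, triangles and circles mark the 30 genes called by the interaction, and 26 of those lie below the line and 4 above it.

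Immediate early genes made up 7 of the 8 plentiful genes with a lower response. They fall into genes that stimulation raised in wild-type cells (Nr4a1, Egr1, Ier2) and genes that stimulation lowered (Fos, Jun, Junb, Dusp1). In the first kind, the rise was smaller or not detected in Gpx4-deficient cells. In the second kind, the fall was larger. For all 7 genes of both kinds, every unstimulated Gpx4-deficient library lay above every unstimulated wild-type one. The share of all tested genes whose libraries separate in this way was not counted. The genes were chosen by an interaction that uses the same libraries, so such separation is only descriptive, here and for the genes below.

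Nr4a1 (chromosome 15, 101254269 to 101274795, plus strand) encodes the orphan nuclear receptor Nur77, whose level is widely used as a readout of TCR signal strength. Its level in replicates 1 to 3 was 414, 355 and 412 CPM in unstimulated and 3140, 3190 and 3190 CPM in stimulated wild-type cells. In Gpx4-deficient cells it was 448, 565 and 420 CPM without and 1820, 1470 and 1460 CPM with stimulation. Unstimulated Gpx4-deficient libraries lay just above the wild-type ones, by a difference that was not called (0.28, adjusted p = 0.861, edgeR), and after stimulation every Gpx4-deficient library lay below every wild-type one. Nr4a1 rose by 3.01 (log2, SE 0.13) in wild-type and by 1.73 (SE 0.13) in Gpx4-deficient cells, an interaction of -1.28 (SE 0.17, adjusted p = 0.0204, edgeR).

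Egr1, a zinc finger transcription factor induced by MAP kinase signalling, measured 310, 277 and 295 CPM in unstimulated and 1090, 1220 and 1290 CPM in stimulated wild-type libraries. The Gpx4-deficient libraries held 579, 629 and 382 CPM without and 882, 801 and 717 CPM with stimulation. Here Gpx4-deficient cells lay above wild-type cells before stimulation and below them after it, with no overlap in either state. The difference between genotypes, called for 0.0674% of all tested genes without and for 2.27% with stimulation, was not called for Egr1 without (0.85, adjusted p = 0.132, edgeR) or with stimulation (-0.58, adjusted p = 0.0916). Egr1 rose by 2.03 in wild-type and by 0.59 in Gpx4-deficient cells, an interaction of -1.43 (SE 0.23, adjusted p = 0.0359).

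Ier2, a small nuclear protein of the immediate early response (chromosome 8, 84661331 to 84662852, minus strand), measured 247, 233 and 273 CPM without and 534, 471 and 493 CPM with stimulation in wild-type cells. In Gpx4-deficient cells the values were 400, 320 and 330 CPM without and 297, 304 and 354 CPM with stimulation, so that the states overlapped. Ier2 rose by 0.99 (SE 0.12, adjusted p = 0.000191, edgeR) in wild-type cells. In Gpx4-deficient cells the change of -0.14 (SE 0.12, adjusted p = 0.511) did not pass the test, and the interaction was -1.13 (SE 0.17, adjusted p = 0.0294).

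Fos (chromosome 12, 85473890 to 85477273, plus strand) encodes a subunit of the AP-1 transcription factor, and its call, with that of Capn3, had the smallest adjusted p. Wild-type libraries held 1380, 1380 and 1730 CPM before and 132, 135 and 116 CPM after stimulation. Gpx4-deficient libraries held 3280, 3410 and 3230 CPM before and 81.0, 73.5 and 55.8 CPM after it. Gpx4-deficient cells thus started above every wild-type library and ended below every one. The response of Fos was -3.55 (log2, SE 0.15) in wild-type and -5.56 (SE 0.16) in Gpx4-deficient cells, an interaction of -2.01 (SE 0.19, adjusted p = 0.00206, edgeR). The genotypes differed in both states, by 1.14 (adjusted p = 0.00785) before and -0.86 (adjusted p = 0.0076) after stimulation.

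Junb and Jun encode partners of Fos in AP-1. Junb (chromosome 8, 84974484 to 84978718, minus strand) measured 2150, 1940 and 2400 CPM without and 1310, 1240 and 1070 CPM with stimulation in wild-type cells. The Gpx4-deficient values were 3230, 3170 and 2540 CPM without and 800, 676 and 602 CPM with stimulation. As for Fos, the Gpx4-deficient libraries lay higher before and lower after stimulation, without overlap, and only the difference after stimulation was called (-0.80, adjusted p = 0.0104, edgeR, against 0.46, adjusted p = 0.467). The response of Junb was -0.84 in wild-type and -2.11 in Gpx4-deficient cells (interaction -1.26, SE 0.19, adjusted p = 0.028). Of its exonic bases 7.52% overlap Prdx2 on the other strand, and whether the counting used strand is not given in the sources used here.

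Jun (chromosome 4, 95049034 to 95052222, minus strand) differed between the genotypes before stimulation. It measured 945, 1050 and 1170 CPM in unstimulated wild-type and 2100, 2420 and 2230 CPM in unstimulated Gpx4-deficient libraries, a difference of 1.09 (adjusted p = 0.0243, edgeR). After stimulation the ranges overlapped, at 275, 245 and 256 CPM in wild-type against 259, 267 and 171 CPM in Gpx4-deficient libraries (-0.15, adjusted p = 0.662). The interaction of -1.24 (SE 0.22, adjusted p = 0.0492) has the largest adjusted p of the calls. It was not called with the DESeq2 size factors or with library totals as scaling. Its antisense partner Junos covers 7.28% of its exonic bases.

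Dusp1 encodes a phosphatase that turns off MAP kinases (chromosome 17, 26505590 to 26562128, minus strand). The wild-type values were 2040, 1910 and 2160 CPM before and 443, 440 and 394 CPM after stimulation. Gpx4-deficient libraries held 2890, 3140 and 3150 CPM before and 391, 399 and 366 CPM after it. They lay above the wild-type range before stimulation (0.59, adjusted p = 0.0236, edgeR), and the ranges overlapped narrowly afterwards (-0.14, adjusted p = 0.364). The interaction was -0.73 (SE 0.11, adjusted p = 0.0298), the smallest in size among the called genes.

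Dnajb1, an HSP40 cochaperone and a target of the heat shock factor HSF1 (chromosome 8, 83608193 to 83612653, plus strand), followed the pattern of Jun and Dusp1. Unstimulated libraries held 319, 303 and 337 CPM in wild-type and 696, 791 and 703 CPM in Gpx4-deficient cells. After stimulation they held 117, 99.6 and 87.6 CPM and 86.8, 116 and 103 CPM. The genotypes differed by 1.19 before (adjusted p = 0.00785, edgeR) and by 0.01 after stimulation (adjusted p = 0.999), an interaction of -1.19 (SE 0.19, adjusted p = 0.0379).

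**Figure D2:**
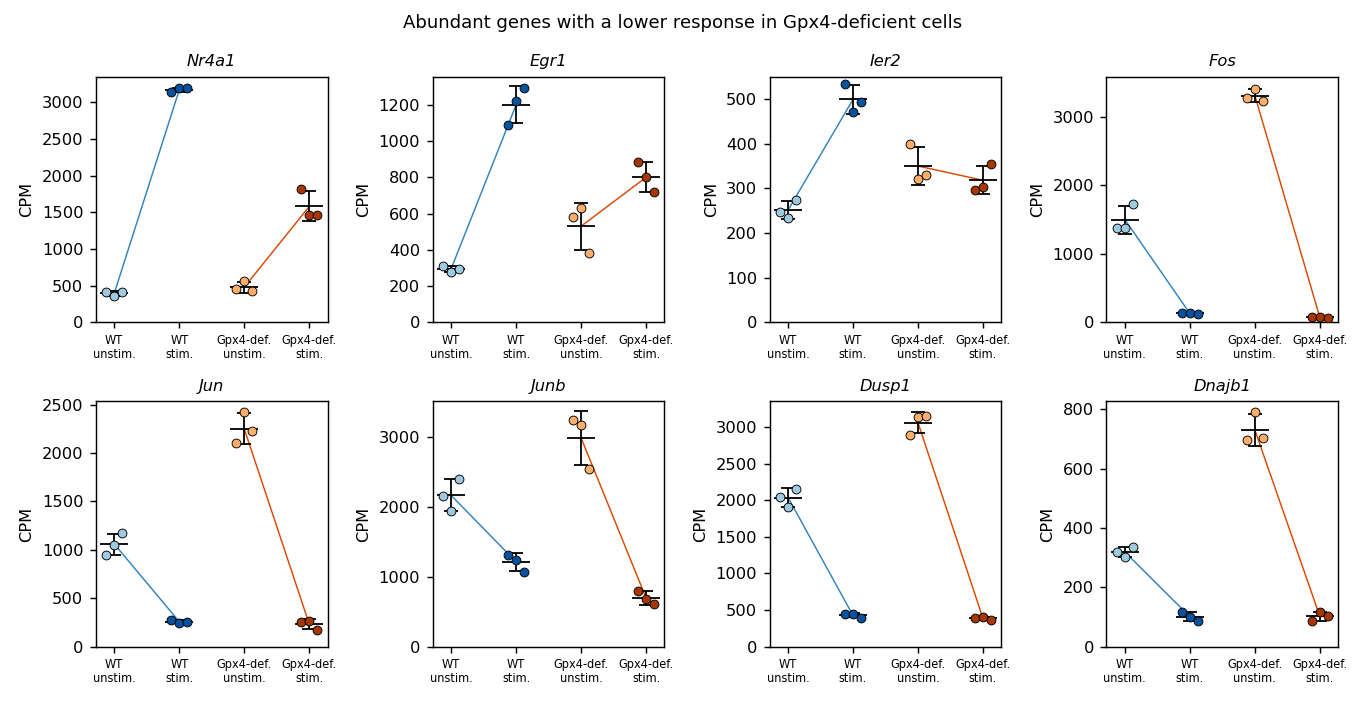
CPM of the 8 plentiful genes with a lower response, by group, on linear axes from 0. Points are libraries, wide bars are group means and whiskers are SD (n = 3), with coloured lines joining unstimulated to stimulated means within a genotype. The rises of Nr4a1, Egr1 and Ier2 are smaller or absent in Gpx4-deficient cells, and the falls of Fos, Jun, Junb, Dusp1 and Dnajb1 are larger. All 8 genes start from higher means in Gpx4-deficient cells.

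The wider immediate early list holds 30 genes, all tested. Of these 7 were called lower and none higher, against 0.175% and 0.027% of all tested genes. Without adjustment 13 were lower and none higher, against 5.54% and 3.22%. The value was negative in 23 of 30, and the list median was -0.66 against -0.01 over all tested genes. The summed level of the list ran from 11400 to 13400 CPM in unstimulated wild-type and from 18400 to 20700 CPM in unstimulated Gpx4-deficient libraries. After stimulation the order was reversed, at 14200 to 14700 and 10800 to 12200 CPM.

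Members of the list that did not pass the test show how far the pattern reached, and the first of them follow the order of p. Btg2, an antiproliferative factor, had an interaction of -0.96 (adjusted p = 0.0702, edgeR), with the same starting and end pattern as Fos in its group means. Ppp1r15a, a phosphatase subunit that reverses translational arrest, had -0.85 (adjusted p = 0.124). Several TCR-induced regulators had values that were not negative: Myc 0.01, Nr4a3 0.24 and Irf4 0.33, which were picked after their values were seen. Myc rose by 2.31 in wild-type and by 2.32 in Gpx4-deficient cells. Among the 14 members called higher by stimulation in wild-type cells, 11 had a smaller rise or a fall in Gpx4-deficient cells (78.6%, against 67.9% of all 907 genes so called). Choosing genes by a call in wild-type cells favours a smaller response in Gpx4-deficient cells. Conversely, of the 1105 genes called higher in Gpx4-deficient cells, 729 had the larger response there. Among the 11 members called lower, 10 had a larger fall (90.9%, against 32.7% of 802).

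The 4 genes with a higher response were 2 mitochondrial transcripts, the costimulatory receptor Icos and the calcium-binding protein S100a10. Icos and the mitochondrial transcripts reached their highest levels in stimulated Gpx4-deficient cells. S100a10 instead fell less.

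Transcript mt-Nd2, from position 3914 to 4951 of the mitochondrial genome, encodes a subunit of respiratory complex I. Wild-type libraries held 240, 249 and 264 CPM without and 240, 277 and 276 CPM with stimulation. In Gpx4-deficient cells the values were 377, 337 and 346 CPM without and 700, 808 and 970 CPM with stimulation. The wild-type states overlapped, while all stimulated Gpx4-deficient libraries lay above all others. mt-Nd2 rose by 1.22 in Gpx4-deficient cells (SE 0.13, adjusted p = 4.53e-05, edgeR), and the interaction was 1.15 (SE 0.18, adjusted p = 0.0294).

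Transcript mt-Cytb (14145 to 15288), for cytochrome b of complex III, measured 2030, 1940 and 2030 CPM in unstimulated and 2300, 2410 and 2310 CPM in stimulated wild-type libraries. Gpx4-deficient libraries held 3160, 2560 and 2720 CPM without and 5530, 5840 and 7320 CPM with stimulation. All Gpx4-deficient libraries lay above all wild-type ones, and the stimulated ones lay highest. The interaction of mt-Cytb was 0.92 (SE 0.15, adjusted p = 0.0361, edgeR).

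All 13 protein-coding mitochondrial transcripts had a positive interaction, with a median of 1.06. Of these 2 were called higher (0.027% of all tested genes were) and 11 had an unadjusted p under 0.05 (3.22%). Next in p were mt-Nd5, of complex I, at 1.14 (adjusted p = 0.054, edgeR) and mt-Co3, of complex IV, at 0.81 (adjusted p = 0.0656). The lowest value belonged to mt-Co1, the catalytic subunit of complex IV, at 0.17 (adjusted p = 0.723). As a share of counts, the 13 transcripts made up 1.19 ± 0.0808% and 1.15 ± 0.0721% in unstimulated and stimulated wild-type libraries (SD, n = 3). In Gpx4-deficient libraries the shares were 1.63 ± 0.113% and 2.83 ± 0.379%. When they were left out of the scaling, 30 genes were called and the list median was 1.07. The nuclear genes of oxidative phosphorylation did not match this size: of 74, none was called, 57 had a positive value and the median was 0.28.

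Icos (chromosome 1, 60977927 to 61000320, plus strand) encodes a CD28-family receptor of activated and effector regulatory T cells. It measured 298, 322 and 289 CPM in unstimulated and 947, 974 and 928 CPM in stimulated wild-type cells. Gpx4-deficient libraries held 333, 378 and 310 CPM without and 1820, 1830 and 2270 CPM with stimulation. Unstimulated ranges overlapped, and the stimulated Gpx4-deficient libraries lay above all others. Icos rose by 1.65 (SE 0.11) and by 2.54 (SE 0.11), an interaction of 0.89 (SE 0.15, adjusted p = 0.0439, edgeR).

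S100a10 encodes the annexin A2 partner p11 (chromosome 3, 93555080 to 93564643, plus strand). Its levels fell from 305, 353 and 281 CPM to 100, 90.3 and 90.9 CPM in wild-type cells. In Gpx4-deficient cells they fell from 241, 244 and 264 CPM to 161, 152 and 204 CPM. After stimulation the Gpx4-deficient libraries lay above the wild-type ones without overlap. The responses of S100a10 were -1.74 and -0.53, an interaction of 1.20 (SE 0.20, adjusted p = 0.0405, edgeR).

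**Figure D3:**
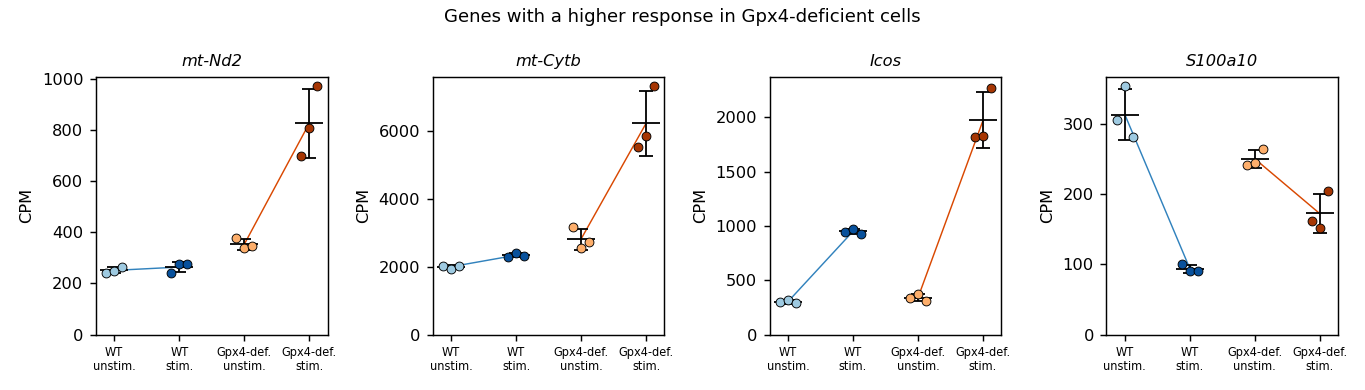
CPM of the 4 genes with a higher response, by group, on linear axes from 0. Points are libraries, wide bars are means and whiskers are SD (n = 3). Stimulated Gpx4-deficient libraries lie highest for mt-Nd2, mt-Cytb and Icos, while S100a10 drops further in wild-type cells.

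The remaining 18 called genes were measured at 21 or more counts in every library of 3 groups, and at 0 to 40 counts in the stimulated Gpx4-deficient libraries. Their mean in that group was 0.607 CPM or less. All 18 fell on stimulation in Gpx4-deficient cells (7.83% of all tested genes did). All 18 were also called lower in stimulated Gpx4-deficient than in stimulated wild-type cells, against 1.25% of all tested genes. These contrasts share libraries with the interaction that chose the genes. The 18 were moreover picked for their low level in stimulated Gpx4-deficient cells, so both counts were nearly fixed in advance and only describe them. None was called between the unstimulated genotypes. In wild-type cells the fitted response was negative for 16 of them and called lower for 6. Of these, 17 are described below in order of known role.

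Capn3, a calcium-dependent protease best known from muscle, held 2028, 3004 and 1917 counts in unstimulated and 72, 85 and 134 counts in stimulated wild-type libraries. Gpx4-deficient libraries held 2301, 1802 and 2097 counts without and 1, 3 and 2 counts with stimulation. It fell in both genotypes, and its stimulated ranges lay apart. The response of Capn3 was -4.51 in wild-type and -10.02 in Gpx4-deficient cells, an interaction of -5.51 (SE 0.52, adjusted p = 0.00206, edgeR). Of its exonic bases, 7.68% overlap the protein-coding gene Ganc on the same strand.

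Tbxa2r and Ptgir encode prostanoid receptors, for thromboxane A2 and for prostacyclin. Tbxa2r held 2030, 1324 and 1963 counts in unstimulated and 358, 189 and 217 counts in stimulated wild-type libraries. In Gpx4-deficient libraries it held 2551, 1811 and 2367 counts without and 16, 4 and 11 counts with stimulation. The stimulated groups did not overlap, and the interaction was -5.06 (SE 0.65, adjusted p = 0.015, edgeR). For Ptgir it was -5.96 (SE 1.01, adjusted p = 0.0426), with 1, 1 and 2 counts in stimulated Gpx4-deficient and 102, 102 and 99 counts in stimulated wild-type libraries.

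Cd72 is a C-type lectin best known as a B cell coreceptor. It held 1047, 880 and 876 counts in unstimulated and 198, 619 and 164 counts in stimulated wild-type libraries. Gpx4-deficient libraries held 1407, 876 and 1500 counts without and 4, 3 and 3 counts with stimulation. The interaction was -7.11 (SE 0.78, adjusted p = 0.00575, edgeR). Summed over 8 B cell markers, the libraries held 58.1 to 84.5 and 15.6 to 26.2 CPM in unstimulated and stimulated wild-type cells. The sums were 32.3 to 71.5 and 5.49 to 61.0 CPM in Gpx4-deficient cells, where 3 of the 8 markers were at 0 in all stimulated libraries. No B cell marker was called, and their part in the value of Cd72 was not tested. In addition, 41.6% of the exonic bases of Cd72 overlap Tesk1 on the other strand.

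Genes of cell division form another group by known role. Cenpj, a centriole assembly protein, held 400, 304 and 456 counts in stimulated wild-type and 2, 6 and 6 counts in stimulated Gpx4-deficient libraries, with an interaction of -6.40 (SE 0.81, adjusted p = 0.015, edgeR). Nsl1, a kinetochore subunit, held 234, 299 and 415 against 4, 5 and 1 counts. Its unstimulated libraries held between 272 and 449 counts in both genotypes, so that only stimulated Gpx4-deficient cells stood apart. Nsl1 had an interaction of -6.98 (SE 0.99, adjusted p = 0.0204).

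Pooled counts of 3 or less in stimulated Gpx4-deficient cells were found for Metrn, a secreted growth factor (1 count), Rtn4rl1, a Nogo receptor relative (3), the noncoding BC043934 (1), Rpusd2, a pseudouridine synthase (2), and the zinc finger gene Zfp324 (3). The corresponding stimulated wild-type counts were 412, 127, 430, 946 and 835. Scaled for library size, the ratio of wild-type to Gpx4-deficient cells was 475 for Metrn (95% interval 84.8 to 18800), 48.8 for Rtn4rl1 (16.3 to 240) and 496 for BC043934 (88.6 to 19600). It was 546 for Rpusd2 (151 to 4510) and 321 for Zfp324 (110 to 1560). These intervals cover counting error only, and that of Rtn4rl1 reaches lowest. Of the exonic bases of Metrn, 48.4% overlap Gm26694 on the other strand and 7.58% AC134908.4 on the same strand. Their interactions had adjusted p of 0.0204 (Metrn), 0.0204 (Rtn4rl1), 0.0294 (BC043934), 0.0439 (Rpusd2) and 0.0466 (Zfp324) in edgeR.

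Rpusd2 and Nsl1 were the 2 genes of the 18 with a positive fitted wild-type response, of which that of Rpusd2 was larger. Its wild-type libraries held 150, 52 and 27 counts without and 294, 332 and 320 counts with stimulation. Gpx4-deficient libraries held 231, 108 and 74 counts without and 1, 0 and 1 counts with stimulation. The rise in wild-type cells (2.10, SE 1.00, adjusted p = 0.236, edgeR) did not pass the test.

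The other genes of this kind were Pard6g, a cell polarity adaptor (interaction -5.98, adjusted p = 0.0204), Ifi213, an interferon-inducible PYHIN protein (-5.04, 0.028), Kyat1, a kynurenine aminotransferase (-6.45, 0.0298), and Kifc2, a kinesin (-5.66, 0.0359). They also included Entpd5, a nucleoside diphosphatase of the endoplasmic reticulum (-4.38, 0.0361), and Ptprv, a phosphatase-related transcript (-6.28, 0.0379). Each second value in parentheses is an adjusted p from edgeR. Genes on the other strand overlap 4.15% of the exonic bases of Kifc2 and 4.94% of those of Ptprv. Ifi213 has close paralogs, between which reads may have been split. Genes named beyond the 15 lowest p in a direction were named after their values were seen.

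**Figure D4:**
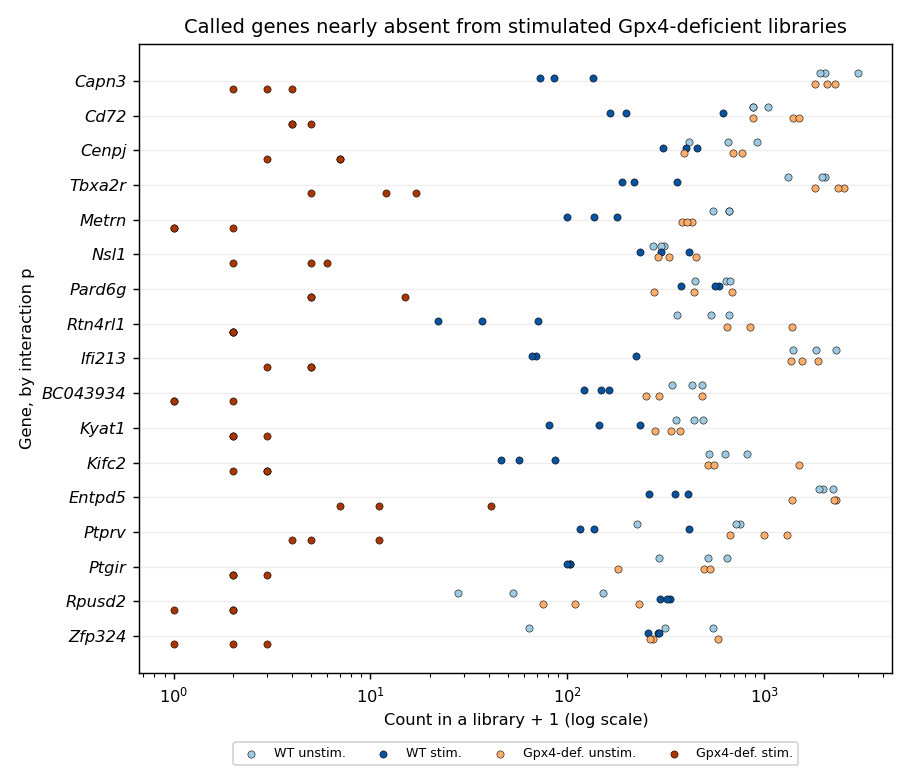
Counts plus 1 (log axis) of 17 called genes whose mean in stimulated Gpx4-deficient cells was under 1 CPM, with 3 points per group (4 colours) on each gene's row. The stimulated Gpx4-deficient libraries hold 0 to 40 counts and the other 9 libraries at least 21, and in each row the stimulated Gpx4-deficient points lie below all others.

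Near absence was not limited to called genes. Over all tested genes, 64 had a mean under 1 CPM in stimulated Gpx4-deficient cells and at least 5 CPM in each other group, and 12 of these were called. The same count was 13 for stimulated wild-type, 3 for unstimulated Gpx4-deficient and 2 for unstimulated wild-type cells, with none called. Among genes with 5 to 10 CPM elsewhere, stimulated Gpx4-deficient libraries listed 8.43% to 12.2% at 0, against 2.28% to 5.79% in stimulated wild-type libraries. Counts were found for 13981 to 14917 genes in stimulated Gpx4-deficient and for 15217 to 15988 genes in stimulated wild-type libraries. The totals of these libraries were 27753405 to 31879267 and 24629230 to 25707372 counts. Whether the wider near absence reflects fewer transcripts or lower detection was not tested, nor was its part in the 18 calls.

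**Figure D5:**
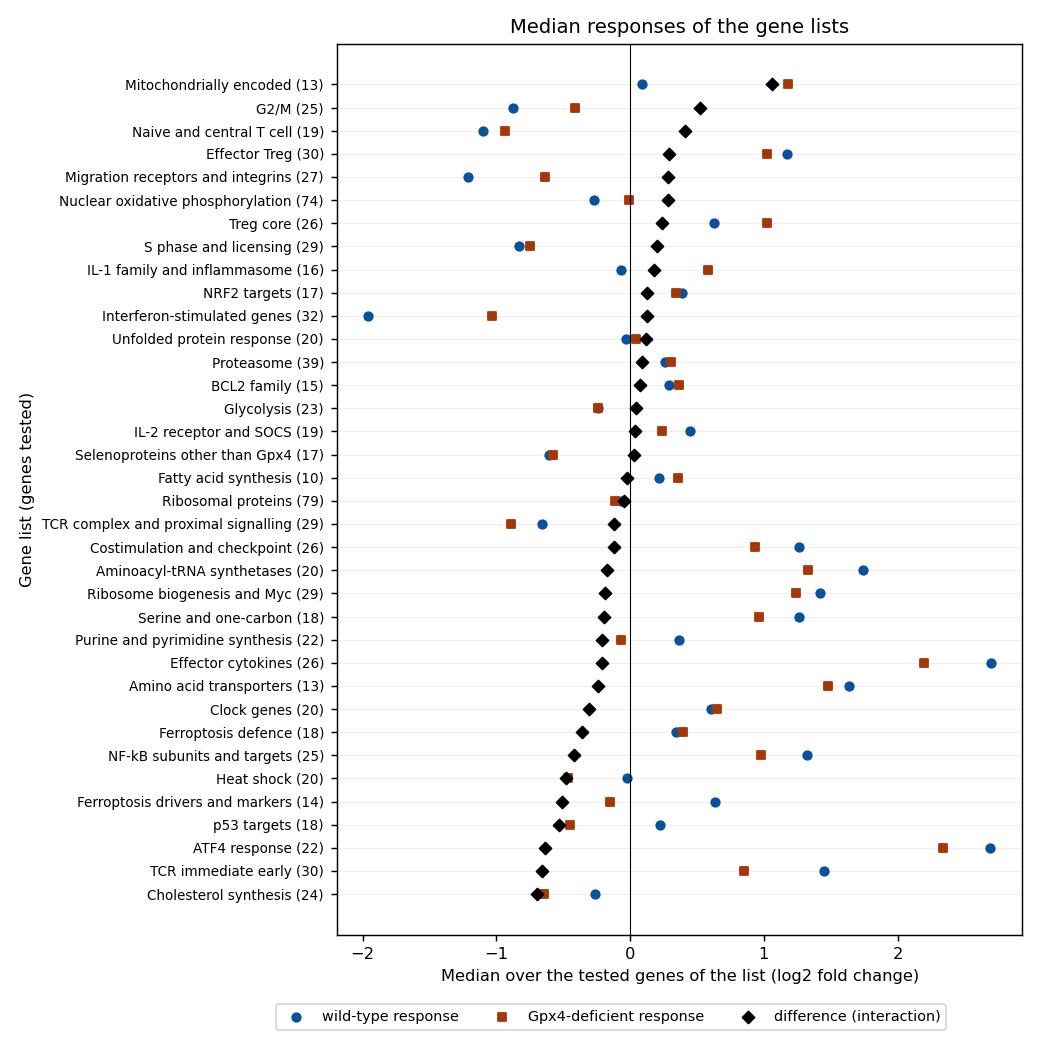
Median over the tested genes of each list other than those of markers of other cell types and sex-linked genes for the wild-type response (blue circles), the Gpx4-deficient response (red squares) and the interaction (black diamonds), in log2 units, with lists in order of the interaction. Cholesterol synthesis (-0.69), immediate early genes (-0.66) and ATF4 targets (-0.64) lie lowest, and mitochondrially encoded genes (1.06) highest.

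Outside the immediate early and mitochondrial genes, few list members were called, and the lists are described by counts. Over all tested genes 49.3% had a positive value, 0.175% were called lower and 5.54% were lower at an unadjusted p under 0.05. In the heat shock list 1 of 20 genes was called lower (Dnajb1), 7 had a lower value at an unadjusted p under 0.05 and 19 had a negative value (median -0.48). Hspa1a, an inducible HSP70, fell from 367 to 30.5 CPM in wild-type and from 2870 to 83.7 CPM in Gpx4-deficient cells (group means). Its interaction of -1.51 (SE 0.38, adjusted p = 0.237, edgeR) did not pass the test, and its near-identical copy Hspa1b had -0.67 (adjusted p = 0.757). The mitochondrial chaperone Hspa9 had -0.65 and Hsp90ab1, a constitutive HSP90, -0.46 (adjusted p = 0.259 each). The median difference between genotypes in this list was 0.66 before and 0.10 after stimulation.

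In the NF-kB and ATF4 lists the median response was positive in both genotypes and lower in Gpx4-deficient cells, and no member was called by the interaction. Of 25 NF-kB subunits and targets, 21 had a negative value (median -0.42; medians of 1.32 and 0.98 for the wild-type and Gpx4-deficient responses). Among the 18 of them called higher in wild-type cells, 17 had a smaller rise or a fall in Gpx4-deficient cells (94.4%, against 67.9% of all genes so called). As for the immediate early list, this way of choosing favours a smaller response in Gpx4-deficient cells. Bcl2l1, the survival factor BCL-XL, had -0.69 (adjusted p = 0.259, edgeR), and the chemokine Ccl4 had -2.05 (adjusted p = 0.313). Of 22 ATF4 targets, 18 had a negative value, with a median of -0.64, or -0.52 with genes absent from a group set at the floor of 3 counts. Atf4 itself, the transcription factor of amino acid stress, had -0.73 (adjusted p = 0.313).

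In ribosome biogenesis 8 of 29 genes had a lower value at an unadjusted p under 0.05, against 5.54% of all tested genes. Of the 29, 27 were called higher by stimulation in wild-type cells (6.12% of all tested genes were) and 26 in Gpx4-deficient cells (7.45%). Cad, the enzyme that starts pyrimidine synthesis and a Myc target, had an interaction of -1.31 (adjusted p = 0.126, edgeR), and Rrp9, a component of the small nucleolar RNA machinery, had -0.68 (adjusted p = 0.389). Vars, the valyl-tRNA synthetase, had the smallest adjusted p of its list at 0.0565 (-1.16), and 15 of 20 aminoacyl-tRNA synthetases had a negative value. The medians were small, at -0.17 for the synthetases and -0.19 for ribosome biogenesis. Of members called higher in wild-type cells, 10 of 15 synthetases (66.7%) and 19 of 27 ribosome biogenesis genes (70.4%) had a smaller rise or a fall in Gpx4-deficient cells. Both shares lie near the 67.9% of all genes so called. Cholesterol synthesis genes had a median of -0.69, the lowest of the lists that are not markers of other cell types, with 19 of 24 negative. Srebf2, the factor that drives them, had -0.67 (adjusted p = 0.314).

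Regulatory T cell genes were spread to both sides. In the core list 19 of 26 had a positive value (median 0.24) and none was called. The zinc finger factor Ikzf2 (Helios) reached 587 CPM in stimulated wild-type and 896 CPM in stimulated Gpx4-deficient cells on average, with an interaction of 0.52 (adjusted p = 0.387, edgeR). Of 30 effector regulatory T cell genes, Icos was called higher (0.027% of all genes were) and 17 had a positive value. The inhibitory receptor Tigit had 1.18 (SE 0.24, adjusted p = 0.0848), from 42.9 to 139 CPM in wild-type and from 32.8 to 242 CPM in Gpx4-deficient cells. In the other direction, Bhlhe40 of the effector list had -0.70 (adjusted p = 0.26, edgeR). Outside the core and effector lists, the checkpoint receptor Vsir (VISTA) had -0.82 (adjusted p = 0.0939) and the cytokine signalling inhibitor Socs3 -1.65 (adjusted p = 0.0751).

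Ferroptosis defence genes, the list closest to the deleted gene, held no called member among 18, with 12 negative values and a median of -0.36 (-0.26 at the floor). Fth1, the ferritin heavy chain that stores iron, was the first by p, at 0.36 (SE 0.12, adjusted p = 0.433, edgeR). It had 1350 CPM in stimulated wild-type and 1770 CPM in stimulated Gpx4-deficient cells on average. Among 14 drivers and markers of ferroptosis 10 values were negative (median -0.51) and none was called. The zinc and iron transporter Slc39a14 had -1.49 (adjusted p = 0.497).

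Of the markers of other cell types, none was called. All 9 monocyte and macrophage markers had a positive value. Their summed level was 153 to 274 CPM in unstimulated and 25.8 to 63.9 CPM in stimulated wild-type libraries, and 141 to 175 and 67.9 to 121 CPM in Gpx4-deficient libraries. Csf1r, the receptor that defines these cells, averaged 35.6 and 0.0675 CPM in unstimulated and stimulated wild-type cells, and 32.7 and 7.22 CPM in Gpx4-deficient cells. Other marker lists had medians above that of the mitochondrial genes as well. In the neutrophil list 6 of 8 tested values were positive (median 3.72), and the summed level of its 10 genes was 47.2 to 177 CPM in unstimulated wild-type against 7.22 to 11.9 CPM in unstimulated Gpx4-deficient libraries, without overlap. After stimulation it was 21.4 to 81.3 and 4.92 to 57.3 CPM, with 3 of the 10 genes at 0 in all stimulated Gpx4-deficient libraries. In the erythroid and platelet list 5 of 6 values were positive (median 2.27) and 3 were higher at an unadjusted p under 0.05, against 3.22% of all tested genes. Its sum was 44.8 to 62.3 CPM in unstimulated and 8.53 to 28.3 CPM in stimulated wild-type libraries, and 25.7 to 41.4 and 40.2 to 54.2 CPM in Gpx4-deficient ones. In the plasma cell list 4 of 5 values were positive (median 1.74), with sums of 364 to 414 CPM in stimulated wild-type and 493 to 553 CPM in stimulated Gpx4-deficient libraries. The CD8 and NK list (median -1.77, or -0.17 at the floor) and the stromal and epithelial list (-0.80) lay on the negative side. The part of these cells in the interactions was not tested.

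The common dispersion was 0.337 and 0.531 in unstimulated and stimulated wild-type libraries, and 0.675 and 1.43 in unstimulated and stimulated Gpx4-deficient libraries. How often the fit misses a true difference, or calls a false one, under such unequal spread was not tested. A missing call does not show equal responses.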

How the data were processed

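Per the labels' protocols, stranded mRNA libraries were prepared from RNA of sorted cells. The authors deposited RSEM gene-level expected counts, which are not whole in 14.8% to 18.1% of values per library. The submitters' processing notes give the build as GRCm38, and neither the aligner nor its version nor the annotation is given in the sources used here. Expected counts were rounded. Of 24502 genes, 14827 passed filterByExpr and entered 1 edgeR 4.0.16 fit (R 4.3.3) of 4 group means (TMM scaling, robust quasi-likelihood F test, 8 residual degrees of freedom). The SE was derived from the F statistic, and every adjusted p is from this test unless another tool is named. Levels are CPM on effective library sizes, and library totals of 24629230 to 31879267 counts set their precision.

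The members and the gene lists were chosen with earlier results of these data known, and so support nothing independently. The naming rule took Gpx4, Foxp3, the 15 called genes of lowest p per direction (mean log2 CPM 1 or more), and up to 4 members per list. A called gene that the rule named is not reported here. Lists were described by counts and medians, without tests. Called genes with up to 3 pooled counts in a group also have ratios with exact 95% counting intervals. Positions are from GENCODE (GRCm38) and promoters from RefSeq. Alternatives were other scalings and filters, DESeq2 1.42.0, limma-voom 3.58.1 with and without weights, replicate blocks, unrounded counts and leaving out libraries.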

Additional observations from a re-analysis of the deposited data

Results flagged for a closer look

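Each of the following 29 genes changed by a different amount on stimulation in the 2 genotypes, by edgeR's test of that difference. The values are the Gpx4-deficient minus the wild-type response (log2). Among plentiful genes with a lower response, Fos had -2.01, Egr1 -1.43, Nr4a1 -1.28, Junb -1.26, Jun -1.24, Dnajb1 -1.19, Ier2 -1.13 and Dusp1 -0.73. Those with a higher response were S100a10 at 1.20, mt-Nd2 at 1.15, mt-Cytb at 0.92 and Icos at 0.89.

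Among genes nearly absent from stimulated Gpx4-deficient libraries, Rpusd2 had -9.56, Zfp324 -8.39, BC043934 -8.10, Metrn -7.76 and Rtn4rl1 -6.24. These 5 fitted values depend on the prior count and are no bounds, since each gene had 3 or fewer pooled counts there. Cd72 had -7.11, Nsl1 -6.98, Kyat1 -6.45, Cenpj -6.40, Ptprv -6.28 and Pard6g -5.98. Ptgir had -5.96, Kifc2 -5.66, Capn3 -5.51, Tbxa2r -5.06, Ifi213 -5.04 and Entpd5 -4.38.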

How the results depend on the processing

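All 30 genes kept their direction under the 26 alternatives, and none kept its call in all of them. The interaction was called for 380 genes by DESeq2 (134 higher, 246 lower) and for 0 by limma-voom (0 higher, 0 lower, 1347 at an unadjusted p under 0.05). Limma-voom with sample weights called 4 (1 lower) and, with group weights added after seeing the data, 3 (2 higher, 1 lower). Higher calls numbered 7 with library totals as scaling, 7 without a filter and 8 with a stricter filter. Without stimulated Gpx4-deficient replicate 3 and unstimulated Gpx4-deficient replicate 1 together (added after seeing the data), 57 genes were called (10 higher, 47 lower). Leaving out 1 library gave 2 to 167 calls (0 to 25 higher, 2 to 142 lower): 2 without each unstimulated wild-type library, 3, 3 and 12 without unstimulated Gpx4-deficient replicates 1 to 3, 8, 6 and 10 without stimulated wild-type ones, and 131, 167 and 67 without stimulated Gpx4-deficient ones. DESeq2 called 2639 genes for the wild-type and 3609 for the Gpx4-deficient response. The cause of these differences was not tested.

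The sample titles use the same replicate numbers in both states of a genotype, so the libraries may be paired, and the main fit ignores such pairing. Deviations of same-numbered libraries correlated at -0.00222 to 0.0569 over 9245 genes, against -0.0451 to 0.0294 for different numbers. Values this small cannot decide whether the libraries were paired. A replicate block of 6 genotype-number pairs called 0 genes (0 higher, 0 lower, 886 at an unadjusted p under 0.05), and a replicate block of 3 numbers called 5 (0 higher, 5 lower). Depth limits the genes with 3 or fewer pooled counts in a group to ratios with wide intervals.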

Other observations

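Further lists held no called gene. G2/M genes had a positive value in 20 of 25 (median 0.52), and their summed level ran from 1790 to 2060 CPM in unstimulated and from 1030 to 1080 CPM in stimulated wild-type libraries. In Gpx4-deficient libraries it ran from 861 to 1190 and from 616 to 874 CPM. Tpx2, a spindle assembly factor, had 1.08 (adjusted p = 0.56, edgeR) and the spindle motor Kif11 -2.86 (adjusted p = 0.445). Naive and central T cell genes had a positive value in 13 of 19 (median 0.41). S1pr1, the receptor that guides exit from lymph nodes, fell in both genotypes, with an interaction of 0.67 (adjusted p = 0.136). Of 18 p53 targets, 14 had a negative value (median -0.53).

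The circadian factor Clock averaged 28.5 and 14.1 CPM in unstimulated and stimulated wild-type cells, and 28.1 and 89.0 CPM in Gpx4-deficient cells. It rose on stimulation in Gpx4-deficient cells (1.66, adjusted p = 0.00719, edgeR), while the wild-type value was -1.02 (adjusted p = 0.0867). The interaction of 2.68 (SE 0.49, adjusted p = 0.0586) did not pass the test.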
